A study of Mus musculus with 6 samples.

Results

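Interferon-stimulated genes are the antiviral programme that cells switch on when an interferon binds its receptor, and 44 of them, regulators included, are described here in mouse hepatic stellate cells. The 44 members were taken by name, from a set of interferon-stimulated genes with IRF and STAT regulators, out of 17909 gene identifiers listed in at least 1 library. All 44 were listed, and 43 passed the filter on low counts. The exception was Mx1.

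The study profiled RNA from primary stellate cells, which store retinoids around the liver sinusoids, in day 1 culture, after magnetic removal of macrophages with Cd11b beads. The sample records give 4 h of attachment, 14 h of culture and 10% serum for every library. The HAS2_Tg group (replicates 4, 5 and 6) came from ASMA-HAS2 transgenic mice, in which the alpha smooth muscle actin promoter, active in smooth muscle and activated stellate cells and so not confined to a single cell type, drives a human HAS2 transgene. The Has2_KO group (replicates 7, 8 and 9) came from mice with loxP-flanked Has2 alleles and a Lrat-Cre driver, so that the deletion is aimed at stellate cells. Every mouse was a male C57BL/6 animal of 24 weeks, and no group without either alteration was analysed here, so a difference cannot be assigned to the transgene or to the deletion. The labels do not say whether a library is 1 mouse or a pool, so p-values measure the spread between these libraries, which may be technical.

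Mouse Has2, the hyaluronan synthase gene deleted in Has2_KO, had 835 to 889 counts in HAS2_Tg libraries and 1 count in each Has2_KO library, and the human transgene is not counted separately here. Libraries held 11961726 to 12423220 expected counts. HAS2_Tg replicate 4 stood apart, with 1.59% of its counts on 1 unnamed gene identifier, against at most 0.156% in any other library. Of 16 stellate cell markers, 14 were higher in HAS2_Tg (12 with total counts) and 2, Reln and Hgf, did not pass. The 16 summed to 17979 to 20947 CPM (TMM-normalised counts, scaled to a common effective library size) in HAS2_Tg and 10558 to 11132 CPM in Has2_KO, so the labelled cell type was present in both groups. Much of the difference was Acta2, the alpha smooth muscle actin gene, at 5387 to 6711 CPM in HAS2_Tg and 1180 to 1206 CPM in Has2_KO. The sum therefore need not follow the number of stellate cells. Of 17 tested macrophage markers all 17 were lower in HAS2_Tg, with a summed level of 14.8 to 17.6 CPM in HAS2_Tg and 673 to 728 CPM in Has2_KO. Clec4f and Timd4, both of Kupffer cells, were at 0 counts in every HAS2_Tg library. All 18 endothelial markers were lower too, at 26.8 to 30.2 CPM in HAS2_Tg and 1147 to 1249.5 CPM in Has2_KO, with Gpihbp1 and Emcn at 0 counts in every HAS2_Tg library. In bulk RNA, fewer cells of a type and less RNA per cell cannot be told apart.

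Type I interferons bind the Ifnar1 and Ifnar2 receptor chains, and the kinases Jak1 and Tyk2 then phosphorylate STAT proteins. Stat2 joins Irf9 in a complex that binds the interferon-stimulated response element (ISRE) of target promoters. Type II interferon acts through Ifngr1, Ifngr2, Jak1 and Jak2 on another element, the gamma-activated site (GAS), and induces Irf1 and the guanylate-binding proteins strongly. Stellate cells are known to respond to both.

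To show the element that many members share, the RefSeq promoter windows of GRCm38.p6, from 250 bases before to 50 bases after each annotated start, were searched for the core GAAANNGAAA on both strands. The windows below are those of the IFIT genes, which lie side by side on chromosome 19, of Oasl1, and of the 4 further called members with the smallest adjusted p that had a window. Each is the 200 bases before the first listed start, which can lie inside the annotated gene span, read 5′ to 3′ on the gene's strand, with ISRE cores in capitals. Every core in capitals lies on the other strand.
Ifit1 promoter, chr19:34640689-34640888, plus strand: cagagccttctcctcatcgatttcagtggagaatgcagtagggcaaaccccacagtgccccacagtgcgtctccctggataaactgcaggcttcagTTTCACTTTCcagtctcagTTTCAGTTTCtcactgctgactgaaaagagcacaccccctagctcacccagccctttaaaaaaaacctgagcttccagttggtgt
Ifit2 promoter, chr19:34550494-34550693, plus strand: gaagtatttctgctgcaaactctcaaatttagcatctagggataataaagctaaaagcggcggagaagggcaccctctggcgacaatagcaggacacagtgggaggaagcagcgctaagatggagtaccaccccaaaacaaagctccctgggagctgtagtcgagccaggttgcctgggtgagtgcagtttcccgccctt
Ifit3 promoter, chr19:34583329-34583528, plus strand: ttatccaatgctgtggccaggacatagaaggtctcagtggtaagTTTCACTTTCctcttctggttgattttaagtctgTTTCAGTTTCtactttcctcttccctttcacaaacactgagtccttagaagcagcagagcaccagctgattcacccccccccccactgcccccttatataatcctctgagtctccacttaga
Ifit3b promoter, chr19:34607757-34607956, plus strand: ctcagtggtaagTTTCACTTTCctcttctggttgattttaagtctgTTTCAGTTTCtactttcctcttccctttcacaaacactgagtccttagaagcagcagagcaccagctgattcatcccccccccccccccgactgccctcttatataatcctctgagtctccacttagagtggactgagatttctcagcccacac
Gbp3 promoter, chr3:142559844-142560043, plus strand: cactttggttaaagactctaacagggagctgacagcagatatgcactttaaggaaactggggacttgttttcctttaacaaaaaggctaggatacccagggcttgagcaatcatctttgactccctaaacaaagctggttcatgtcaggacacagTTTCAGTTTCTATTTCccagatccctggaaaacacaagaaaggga
Rsad2 promoter, chr12:26456453-26456652, minus strand: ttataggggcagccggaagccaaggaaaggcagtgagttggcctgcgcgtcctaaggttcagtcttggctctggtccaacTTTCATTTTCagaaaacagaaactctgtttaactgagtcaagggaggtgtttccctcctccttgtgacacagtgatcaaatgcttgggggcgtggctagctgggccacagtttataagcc
Oasl1 promoter, chr5:114923040-114923239, plus strand: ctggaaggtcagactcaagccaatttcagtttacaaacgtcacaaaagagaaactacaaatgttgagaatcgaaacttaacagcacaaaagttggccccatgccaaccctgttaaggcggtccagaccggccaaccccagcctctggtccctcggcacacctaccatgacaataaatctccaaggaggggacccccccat
Irf8 promoter, chr8:120736158-120736357, plus strand: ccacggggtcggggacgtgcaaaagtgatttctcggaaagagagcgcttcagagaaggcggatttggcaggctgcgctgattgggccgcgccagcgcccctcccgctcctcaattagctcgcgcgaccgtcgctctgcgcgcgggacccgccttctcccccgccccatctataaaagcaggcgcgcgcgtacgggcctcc
Ifitm1 promoter, chr7:140967876-140968075, plus strand: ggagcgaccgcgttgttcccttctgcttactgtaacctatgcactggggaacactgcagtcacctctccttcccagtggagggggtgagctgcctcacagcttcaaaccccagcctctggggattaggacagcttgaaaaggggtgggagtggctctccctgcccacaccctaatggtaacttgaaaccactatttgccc
Of 34 members with a window, 20 held an ISRE core, which is 58.8%, against 3.99% of 27025 genes with a window. The GAS core TTCNNNGAA, which reads the same on both strands, was in 11 of the 34 (32.4%) and in 9.55% of all genes. The ISRE core was present in 6 of 9 members that were higher in HAS2_Tg, 4 of 8 that were lower and 10 of 17 that were not called. Ifit1, Ifit3 and Ifit3b each held the same pair of cores, TTTCACTTTC followed by TTTCAGTTTC. The pair began 104 and 85 bases before the start in Ifit1, 156 and 122 bases before it in Ifit3 and 188 and 154 bases before it in Ifit3b. No ISRE core was in the windows of Ifit2, Oasl1, Irf8 and Ifitm1, and that of Irf8 held a pair of GAS cores, 171 and 153 bases before its start. Gbp3 had overlapping cores 45 and 39 bases before its start and Rsad2 a core 120 bases before it.

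Of the 43 tested members, 12 were higher in HAS2_Tg, 10 were lower and 21 did not pass (edgeR quasi-likelihood test on rounded counts, TMM scaling, Benjamini-Hochberg adjusted p under 0.05 over all 13014 genes tested). Those shares, 27.9% higher and 23.3% lower, were near the background of 20.2% of all tested genes higher and 20.5% lower, so the counts set the members apart from other genes in neither direction. The median log2 fold change of HAS2_Tg over Has2_KO was -0.02 over the members and -0.01 over all genes. Fold changes of members ran from -1.50 for Ifitm1 to 0.78 for Ifit3b, and a test against a 1.5-fold change passed Ifit2 and Ifit3 as higher and Ifitm1, Oasl1 and Irf8 as lower (all genes 4.24% higher and 8.03% lower). The members' summed level was 3159, 3256 and 3196 CPM in HAS2_Tg replicates 4, 5 and 6 and 3238, 3307 and 3301 CPM in Has2_KO replicates 7, 8 and 9. CPM of 14 members lay wholly higher in HAS2_Tg than in Has2_KO, 14 lay wholly lower and 15 overlapped, where 25.2% of all genes lay wholly higher and 26.9% wholly lower.

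The scaling of libraries decided many of the small changes. Scaling by total counts moved the median of all genes to -0.18, and under it 5 members were higher and 19 lower (all genes 11.3% higher and 37.1% lower). The 5 that were higher under all 4 scalings (TMM, DESeq2 size factors, upper-quartile factors and total counts) were Ifit2, Ifit3, Ifit3b, Gbp3 and Isg20. All 10 members called lower stayed so under each scaling. Total counts moved fold changes down as a whole, so that scaling could not test the lower calls. Over all 16 settings other than the stricter thresholds, the same 5 stayed higher. Ifitm1, Ifitm3, Irf8, Oasl1, Rsad2 and Zbp1 stayed lower in each of the 16. Mx2, Ifitm2, Ifi44 and Oas3, which was filtered out in some, did not. Isg15, Usp18, Ifih1, Dhx58, Bst2, Parp9 and Ifi35 were higher with TMM, size factors and upper-quartile factors and did not pass with total counts. With limma on log2(FPKM + 1), 5 members were higher and 16 lower (all genes 11.9% higher and 35.6% lower). Newly lower with total counts were Ddx58, Eif2ak2, Iigp1, Irf1, Irgm1, Oas1a, Oasl2, Parp14 and Trim25. With the DESeq2 Wald test Isg15, Dhx58, Mx2, Parp9 and Ifi44 did not pass, at adjusted p of 0.075 to 0.15. Leaving out Has2_KO replicate 9 took the number of members higher to 7. That number is given without the share of all genes and is not read as a trait of the members.

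**Figure D1:**
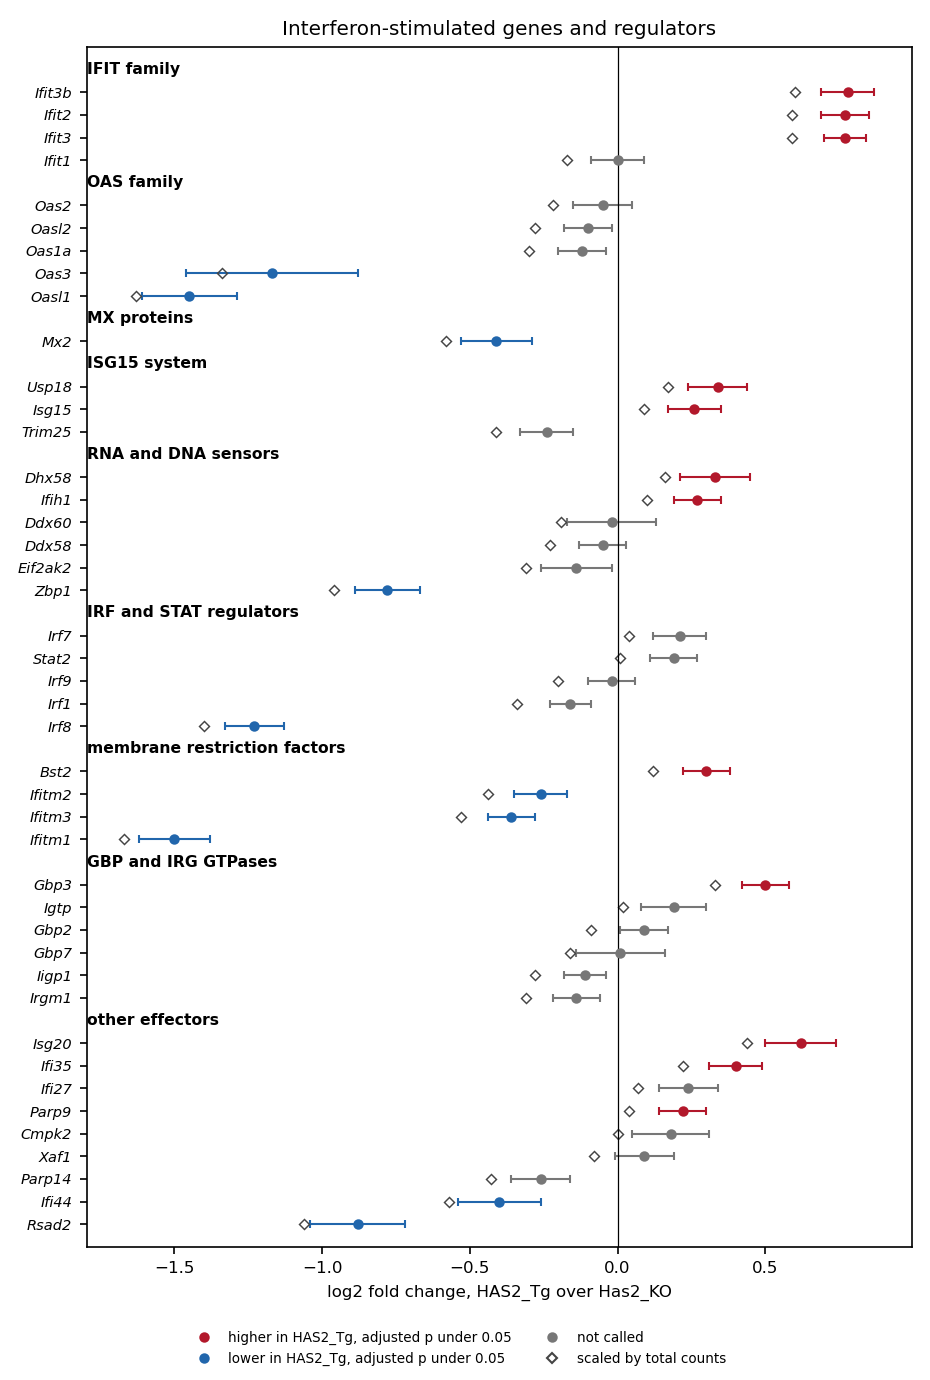
Log2 fold change of HAS2_Tg over Has2_KO for the 43 tested members (x axis), grouped by role. Filled points with bars are TMM-scaled estimates ± SE, coloured by call, and open diamonds are the estimates after scaling by total counts. Ifit2, Ifit3 and Ifit3b lie near 0.77, while Ifitm1 (-1.50) and Oasl1 (-1.45) lie lowest.

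IFIT proteins bind viral RNA and block its translation. Of the 4 members of this family 3 were higher in HAS2_Tg by similar amounts (all genes 20.2% higher), and Ifit1 was not called. Ifit3 and Ifit3b share reads, so their rises are not independent. Ifit3 was 189, 182 and 196 CPM in HAS2_Tg replicates 4, 5 and 6, against 115, 109 and 108 CPM in Has2_KO replicates 7, 8 and 9. The groups did not overlap, and the log2 fold change was 0.77 (SE 0.07, edgeR adjusted p = 6.06e-07). Ifit2 was 59.0, 59.3 and 57.6 CPM in HAS2_Tg, against 34.5, 34.7 and 34.2 CPM in Has2_KO (log2 fold change 0.77, SE 0.08, edgeR adjusted p = 1.18e-06). Its libraries were within 2 CPM of each other inside each group. Ifit3b was 43.1, 44.0 and 48.8 CPM in HAS2_Tg, against 28.4, 27.0 and 23.9 CPM in Has2_KO (log2 fold change 0.78, SE 0.09, edgeR adjusted p = 9.18e-06). Ifit1, which recognises RNA 5′ ends, was 61.5, 74.6 and 72.9 CPM in HAS2_Tg, against 68.6, 71.4 and 68.5 CPM in Has2_KO. Its groups overlapped, and its log2 fold change was 0.00 (SE 0.09, edgeR adjusted p = 0.973), negative with total counts (-0.17). Stellate cell markers, summing to 17979 to 20947 CPM in HAS2_Tg and 10558 to 11132 CPM in Has2_KO, moved with the 3 higher IFIT genes, and their part was not tested.

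The 4 genes lie together on chromosome 19 of GRCm38, Ifit2 at chr19:34550550-34576534, Ifit3 at chr19:34583119-34588982, Ifit3b at chr19:34607530-34613403 and Ifit1 at chr19:34640889-34650009. Ratios within a library do not depend on its scaling, and the pairs used for them here were picked with their values known. The Ifit3 to Ifit1 count ratio was 3.08, 2.43 and 2.68 in HAS2_Tg, against 1.68, 1.53 and 1.58 in Has2_KO, with no overlap. The Ifit2 to Ifit1 ratio was 0.960, 0.794 and 0.790 in HAS2_Tg, against 0.503, 0.486 and 0.499 in Has2_KO. Ifit3 and Ifit3b are near copies: 51.2% of the 50-base words of the longest Ifit3 transcript in GENCODE also occur in Ifit3b. Their expected counts are therefore a division of shared reads, and the Ifit3b to Ifit3 ratio, 0.228, 0.242 and 0.250 in HAS2_Tg and 0.247, 0.248 and 0.221 in Has2_KO, overlapped between groups. Ifit2 shares no such word with another gene, and its counts were whole in every library.

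**Figure D2:**
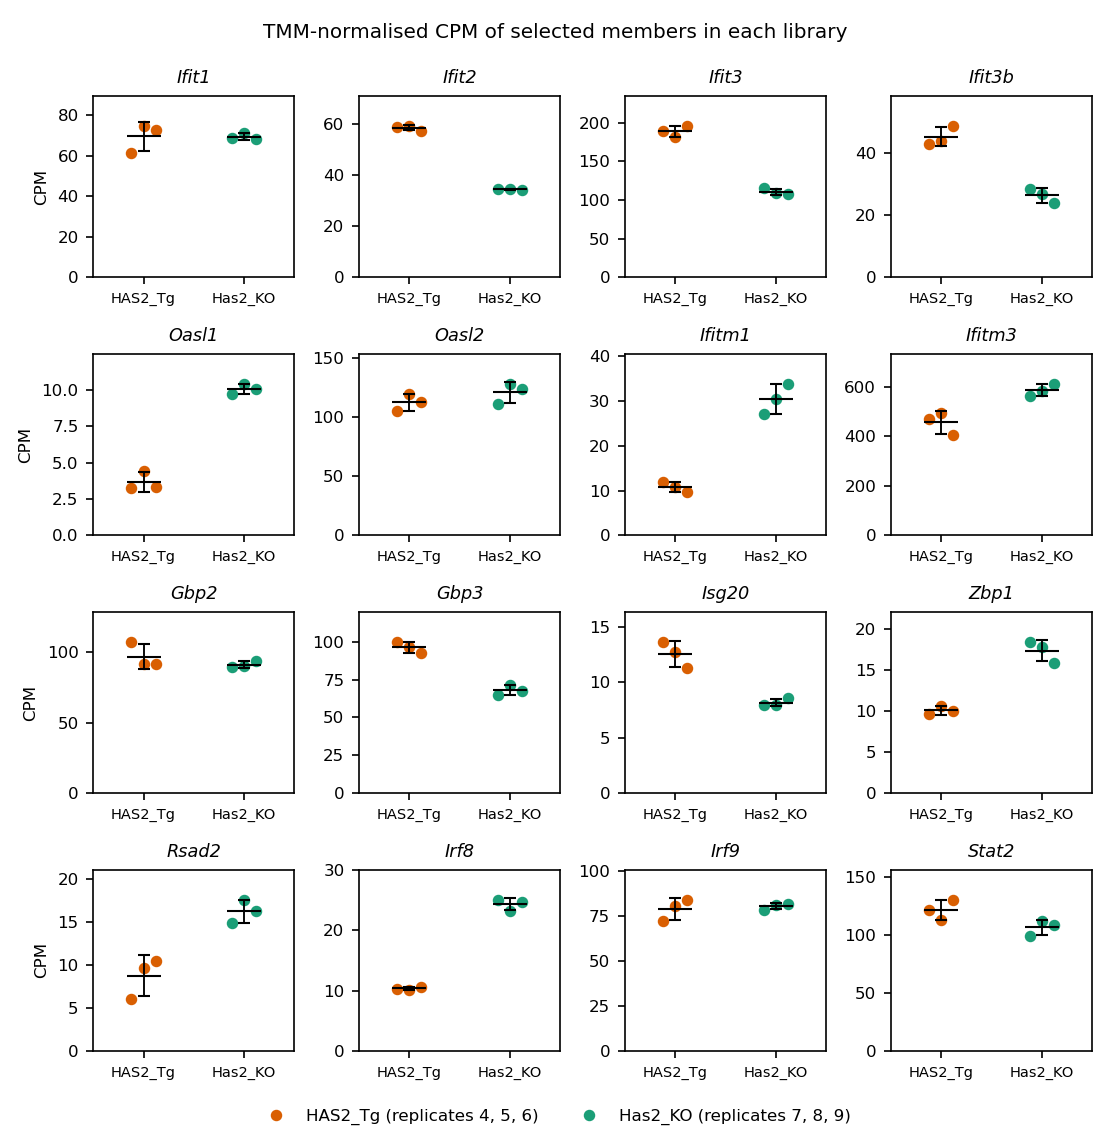
TMM-normalised CPM (y axis, from 0) of 16 members in each library, HAS2_Tg left and Has2_KO right. Points are libraries, and the bar is the mean ± SD of 3 libraries. Ifit2, Ifit3, Ifit3b, Gbp3 and Isg20 sit higher in HAS2_Tg, Oasl1, Ifitm1, Ifitm3, Zbp1, Rsad2 and Irf8 sit lower, and Ifit1, Oasl2, Gbp2 and Irf9 overlap; Stat2 was not called.

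OAS proteins make 2′-5′ oligoadenylates, a messenger of the antiviral response, as does mouse Oasl2, whereas mouse Oasl1 lacks that activity. Of 5 members, Oasl1 and Oas3 were lower in HAS2_Tg (all genes 20.5% lower) and Oas1a, Oas2 and Oasl2 did not pass. Oasl1, known in mice to inhibit translation of Irf7, was 3.23, 4.45 and 3.32 CPM in HAS2_Tg, against 9.73, 10.4 and 10.1 CPM in Has2_KO. The highest HAS2_Tg library was below the lowest Has2_KO library, and the log2 fold change was -1.45 (SE 0.16, edgeR adjusted p = 3.28e-06). The Oasl1 to Oasl2 ratio was 0.0306, 0.0370 and 0.0295 in HAS2_Tg and 0.0874, 0.0811 and 0.0812 in Has2_KO. Oas3 was low throughout, at 1.52, 0.698 and 1.05 CPM in HAS2_Tg and 2.58, 2.73 and 2.06 CPM in Has2_KO (log2 fold change -1.17, SE 0.29, edgeR adjusted p = 0.00531). Oasl2 averaged 113 ± 7.34 CPM in HAS2_Tg libraries and 121 ± 8.75 CPM in Has2_KO libraries (SD, n = 3 each) and did not pass (log2 fold change -0.10, SE 0.08). Oas1a and Oas2 had log2 fold changes of -0.12 (SE 0.08) and -0.05 (SE 0.10), and 57.6% of the 50-base words of Oas1a also occur in Oas1g, so its counts are uncertain. With total counts Oas1a (-0.30) and Oasl2 (-0.28) passed as lower. Macrophage marker sums, 14.8 to 17.6 CPM in HAS2_Tg and 673 to 728 CPM in Has2_KO, moved with Oasl1 and Oas3. So did endothelial marker sums, 26.8 to 30.2 CPM in HAS2_Tg and 1147 to 1249.5 CPM in Has2_KO. The part of either in these differences was not tested.

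MX proteins are GTPases that trap viral capsids, and C57BL/6 mice carry a defective Mx1. Mx1 had 1.02 to 7.22 counts in HAS2_Tg libraries and 5.36 to 14.4 counts in Has2_KO libraries and was not tested. Mx2 was 7.80, 9.16 and 9.26 CPM in HAS2_Tg, against 11.5, 11.8 and 11.6 CPM in Has2_KO (log2 fold change -0.41, SE 0.12, edgeR adjusted p = 0.0149). The groups did not overlap. The call ended without Has2_KO replicate 8 (-0.40, edgeR adjusted p = 0.051).

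Isg15 is a ubiquitin-like modifier and Usp18 the protease that removes it and that dampens the type I receptor. Isg15 was 37.4, 40.2 and 35.7 CPM in HAS2_Tg, against 31.2, 33.5 and 29.9 CPM in Has2_KO (log2 fold change 0.26, SE 0.09, edgeR adjusted p = 0.0287). Usp18 was 24.8, 25.6 and 23.2 CPM in HAS2_Tg, against 17.8, 21.2 and 19.0 CPM in Has2_KO (log2 fold change 0.34, SE 0.10, edgeR adjusted p = 0.0128). Neither pair of groups overlapped, and both rises ended with total counts (Isg15 0.09, Usp18 0.17). Without Has2_KO replicate 7 or 9 both calls ended too (Isg15 0.25 and 0.22, Usp18 0.29 and 0.33), and that of Isg15 also without HAS2_Tg replicate 5 (0.22). Trim25, a ubiquitin and ISG15 ligase that activates the RNA sensor Ddx58, had a log2 fold change of -0.24 (SE 0.09, edgeR adjusted p = 0.0574).

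Of 6 sensors of foreign RNA and DNA, Ifih1 and Dhx58 were higher in HAS2_Tg with TMM scaling, Zbp1 was lower and 3 did not pass (all genes 20.2% higher and 20.5% lower). Zbp1, a sensor of left-handed nucleic acid, was 9.60, 10.6 and 10.1 CPM in HAS2_Tg, against 18.4, 17.8 and 15.9 CPM in Has2_KO (log2 fold change -0.78, SE 0.11, edgeR adjusted p = 5e-05). No library of either group reached into the other. Ifih1, the long double-stranded RNA sensor MDA5, was 116, 137 and 135 CPM in HAS2_Tg, against 109, 105 and 107 CPM in Has2_KO (log2 fold change 0.27, SE 0.08, edgeR adjusted p = 0.0138). Dhx58, which modulates both RNA helicase sensors, was 13.4, 11.5 and 14.4 CPM in HAS2_Tg, against 10.3, 9.94 and 11.1 CPM in Has2_KO (log2 fold change 0.33, SE 0.12, edgeR adjusted p = 0.0418). The calls of Ifih1 (0.10) and Dhx58 (0.16) ended with total counts. That of Ifih1 also ended without HAS2_Tg replicate 5 (0.23) or Has2_KO replicate 8 (0.26) or 9 (0.27), and that of Dhx58 without any library other than HAS2_Tg replicate 5, over 0.26 to 0.38. Ddx58, the sensor RIG-I, Ddx60 and Eif2ak2, the double-stranded RNA-dependent kinase PKR, had log2 fold changes of -0.05, -0.02 and -0.14 and did not pass. Without HAS2_Tg replicate 4 these were 0.03, 0.08 and 0.00. Macrophage markers, summing to 14.8 to 17.6 CPM in HAS2_Tg and 673 to 728 CPM in Has2_KO, moved with Zbp1 as they did with Mx2. So did endothelial markers, at 26.8 to 30.2 CPM in HAS2_Tg and 1147 to 1249.5 CPM in Has2_KO. The part of either list was not tested.

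Of the 5 transcription factors among the members, Irf8 was lower (all genes 20.5% lower) and the other 4 did not pass. Irf8, a factor of myeloid cells and dendritic cells, was 10.3, 10.1 and 10.7 CPM in HAS2_Tg, against 25.0, 23.1 and 24.7 CPM in Has2_KO. The groups did not overlap, and the log2 fold change was -1.23 (SE 0.10, edgeR adjusted p = 1.36e-07). Irf1, a factor induced by type II interferon, was 99.7, 98.6 and 108 CPM in HAS2_Tg, against 118, 112 and 114 CPM in Has2_KO (log2 fold change -0.16, SE 0.07, edgeR adjusted p = 0.0947). Irf7, the amplifier of type I interferon transcription, was 44.4, 53.3 and 45.2 CPM in HAS2_Tg, against 41.7, 42.5 and 39.4 CPM in Has2_KO (log2 fold change 0.21, SE 0.09, edgeR adjusted p = 0.0781). Neither passed, although the groups of each did not overlap. Irf9 was 72.4, 80.8 and 84.0 CPM in HAS2_Tg, against 78.5, 80.9 and 81.7 CPM in Has2_KO (log2 fold change -0.02, SE 0.08, edgeR adjusted p = 0.84). Stat2 was 121, 112.4 and 129.9 CPM in HAS2_Tg, against 98.9, 111.9 and 108 CPM in Has2_KO (log2 fold change 0.19, SE 0.08, edgeR adjusted p = 0.0754). The Irf9 groups overlapped, and those of Stat2 nearly touched. Irf7 passed without HAS2_Tg replicate 4 or 6 (0.25 each), Irf1 without HAS2_Tg replicate 6 (-0.20) and with total counts (-0.34), and Stat2 without HAS2_Tg replicate 5 (0.24). The Irf8 to Irf9 ratio was 0.143, 0.125 and 0.127 in HAS2_Tg and 0.319, 0.286 and 0.303 in Has2_KO. Macrophage markers (summed 14.8 to 17.6 CPM in HAS2_Tg and 673 to 728 CPM in Has2_KO) moved with Irf8. Endothelial markers (26.8 to 30.2 CPM in HAS2_Tg and 1147 to 1249.5 CPM in Has2_KO) moved with it too. So did the dendritic cell markers Itgax, with 1 count in each HAS2_Tg library and 376, 386 and 370 counts in Has2_KO libraries, and Clec9a, with 1, 0 and 0 counts in HAS2_Tg and 26, 36 and 34 counts in Has2_KO. The part of these cells in the Irf8 difference was not tested. Of 6 tested dendritic cell markers those 2 were lower, and Bst2, itself a member, was higher with TMM scaling. The 10 listed ones summed to 289.6 to 300.9 CPM in HAS2_Tg and 303.5 to 315 CPM in Has2_KO. Most of each sum was Bst2 and Tcf4, which was not called (159 to 182 CPM in HAS2_Tg and 172 to 181 CPM in Has2_KO). The sums therefore do not show the levels of Itgax and Clec9a.

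**Figure D3:**
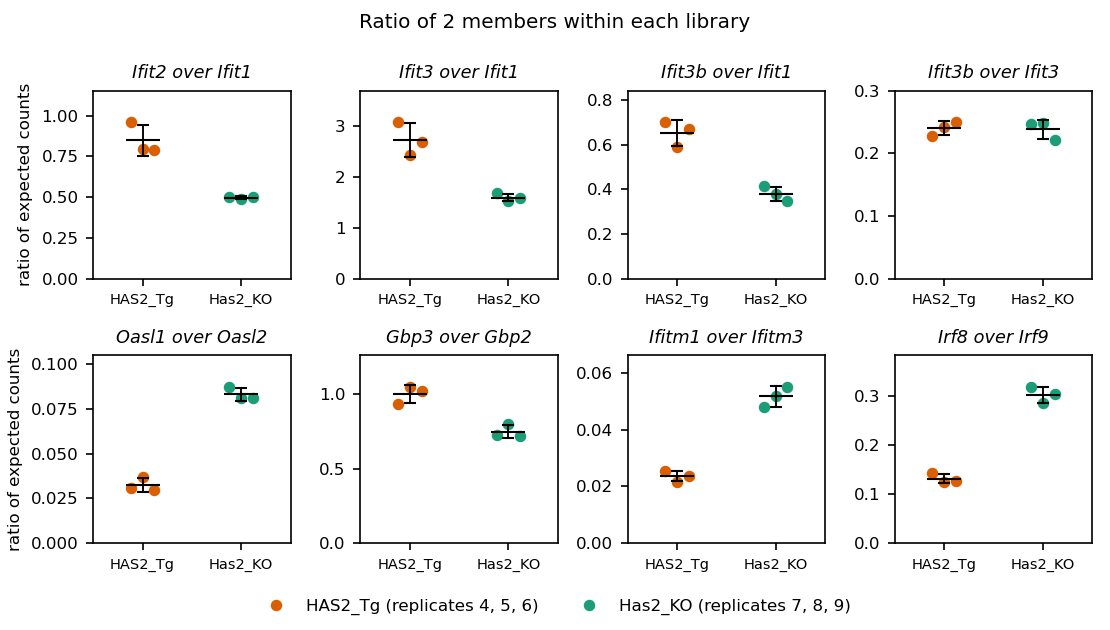
Ratio of the expected counts of 2 members within each library (y axis, from 0), a quantity that library scaling does not touch, with HAS2_Tg left and Has2_KO right and bars at the mean ± SD of 3 libraries. Ratios to Ifit1 and that of Gbp3 to Gbp2 are higher in HAS2_Tg, those of Oasl1, Ifitm1 and Irf8 are lower, and Ifit3b to Ifit3 overlaps.

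Of 4 membrane proteins that hold viruses back, 3 were lower in HAS2_Tg and Bst2 was higher with TMM scaling (all genes 20.5% lower and 20.2% higher). IFITM proteins block fusion of incoming virus with cell membranes. Ifitm1 was 11.9, 10.8 and 9.61 CPM in HAS2_Tg, against 27.1, 30.4 and 33.8 CPM in Has2_KO (log2 fold change -1.50, SE 0.12, edgeR adjusted p = 8.16e-08). Every Has2_KO library was above every HAS2_Tg library. Ifitm3 was 472, 496 and 406 CPM in HAS2_Tg, against 564, 586 and 612 CPM in Has2_KO (log2 fold change -0.36, SE 0.08, edgeR adjusted p = 0.00317). Ifitm2 was 402, 321 and 320.4 CPM in HAS2_Tg, against 429, 406 and 414 CPM in Has2_KO (log2 fold change -0.26, SE 0.09, edgeR adjusted p = 0.032). The Ifitm2 groups came close to each other through HAS2_Tg replicate 4, and its call ended without any library other than that replicate, over -0.28 to -0.20. Without HAS2_Tg replicate 4 it was -0.38. The 3 genes lie within 1 stretch of chromosome 7, from Ifitm2 at chr7:140954837-140959686 to Ifitm3 at chr7:141009590-141010744. Of the 50-base words of Ifitm2, 48.5% occur in other genes, so its counts are uncertain. The Ifitm1 to Ifitm3 ratio was 0.0253, 0.0217 and 0.0238 in HAS2_Tg and 0.0481, 0.0519 and 0.0552 in Has2_KO. Endothelial markers, at 26.8 to 30.2 CPM in HAS2_Tg and 1147 to 1249.5 CPM in Has2_KO, and the macrophage markers moved with the IFITM genes, and their part was not tested. Bst2, the tether that retains budding virus, went the other way with TMM scaling, at 118, 107 and 101 CPM in HAS2_Tg, against 89.2, 86.3 and 90.3 CPM in Has2_KO (log2 fold change 0.30, SE 0.08, edgeR adjusted p = 0.00708). It did not pass with total counts (0.12).

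Guanylate-binding proteins and immunity-related GTPases attack the vacuoles of intracellular microbes. Of 6 such members only Gbp3 was called (all genes 20.2% higher and 20.5% lower). Gbp3 was 99.7, 96.4 and 92.7 CPM in HAS2_Tg, against 64.8, 71.7 and 67.5 CPM in Has2_KO (log2 fold change 0.50, SE 0.08, edgeR adjusted p = 8.17e-05). Its neighbours on chromosome 3, Gbp2 and Gbp7, had 0.09 (SE 0.08) and 0.01 (SE 0.15), as log2 fold changes, both negative with total counts (-0.09 and -0.16). The Gbp3 to Gbp2 ratio was 0.932, 1.05 and 1.02 in HAS2_Tg, against 0.725, 0.796 and 0.721 in Has2_KO, without overlap. Igtp, Irgm1 and Iigp1 had log2 fold changes of 0.19, -0.14 and -0.11 and did not pass. Gbp7 (0.19) and Igtp (0.31) passed as higher without HAS2_Tg replicate 4, in which they were 48.8 and 27.6 CPM, against 72.7 to 78.9 and 35.6 to 39.0 CPM in HAS2_Tg replicates 5 and 6. Stellate cell markers, summing to 17979 to 20947 CPM in HAS2_Tg and 10558 to 11132 CPM in Has2_KO, moved with Gbp3, and their part was not tested.

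Of the 9 remaining effectors, Isg20, Ifi35 and Parp9 were higher in HAS2_Tg with TMM scaling, Rsad2 and Ifi44 were lower and 4 did not pass (all genes 20.2% higher and 20.5% lower). Isg20, an exonuclease that degrades RNA, was 13.6, 12.7 and 11.3 CPM in HAS2_Tg, against 7.98, 7.96 and 8.55 CPM in Has2_KO (log2 fold change 0.62, SE 0.12, edgeR adjusted p = 0.000992). Rsad2, the radical enzyme viperin, was 6.10, 9.68 and 10.5 CPM in HAS2_Tg, against 14.9, 17.5 and 16.2 CPM in Has2_KO (log2 fold change -0.88, SE 0.16, edgeR adjusted p = 0.00045). Neither pair of groups overlapped. Cmpk2, the nucleotide kinase encoded next to Rsad2 on chromosome 12, had a log2 fold change of 0.18 (SE 0.13) and did not pass. Ifi35, an adaptor induced by interferon, was 52.8, 46.9 and 43.2 CPM in HAS2_Tg, against 35.3, 36.5 and 36.8 CPM in Has2_KO (log2 fold change 0.40, SE 0.09, edgeR adjusted p = 0.00263). It had 0.22 with total counts and did not pass (edgeR adjusted p = 0.0544). Parp9, an ADP-ribosyltransferase family member, was 62.7, 61.3 and 59.1 CPM in HAS2_Tg, against 48.9, 54.4 and 54.3 CPM in Has2_KO (log2 fold change 0.22, SE 0.08, edgeR adjusted p = 0.0409). Its call ended with total counts (0.04), and without HAS2_Tg replicate 5 or any Has2_KO library, over 0.17 to 0.24. Ifi44 was 8.61, 13.9 and 11.4 CPM in HAS2_Tg, against 15.1, 14.6 and 15.0 CPM in Has2_KO (log2 fold change -0.40, SE 0.14, edgeR adjusted p = 0.0383). Its call ended when HAS2_Tg replicate 4 or 6 or any Has2_KO library was left out, over -0.41 to -0.24. Parp14 (-0.26), Xaf1 (0.09) and Ifi27 (0.24) did not pass. Parp14 passed as lower without HAS2_Tg replicate 6 (-0.39), as did Trim25 (-0.33), and Ifi27 passed as higher (0.35). Macrophage markers, summing to 14.8 to 17.6 CPM in HAS2_Tg and 673 to 728 CPM in Has2_KO, moved with Rsad2 and Ifi44. So did endothelial markers, at 26.8 to 30.2 CPM in HAS2_Tg and 1147 to 1249.5 CPM in Has2_KO. Stellate cell markers, at 17979 to 20947 CPM in HAS2_Tg and 10558 to 11132 CPM in Has2_KO, moved with Isg20, Ifi35 and Parp9. The part of any of these cell types was not tested.

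Levels per length place the members over a wide range. FPKM (fragments relative to gene length and depth, the authors' values, not TMM-scaled) were highest for Ifitm3, at 693 ± 77.5 FPKM in HAS2_Tg and 1003 ± 38.5 FPKM in Has2_KO (SD, n = 3 each), and lowest for Mx1, at 0.110 ± 0.0985 FPKM in HAS2_Tg and 0.260 ± 0.141 FPKM in Has2_KO. Ifitm3, Ifitm2 and Bst2 were the top 3 in both groups. Ifitm1 ranked 27 of 44 at 15.0 ± 1.57 FPKM in HAS2_Tg and 7 of 44 at 47.8 ± 5.16 FPKM in Has2_KO. Ifit3b ranked 20 at 19.9 to 22.7 FPKM in HAS2_Tg and 29 at 12.6 to 15.1 FPKM in Has2_KO, and Gbp3 ranked 9 in HAS2_Tg and 17 in Has2_KO. Many neighbours in the middle of the order lay within each other's spread, such as Stat2 at 25.7 ± 1.58 and Irf7 at 25.0 ± 3.12 FPKM in HAS2_Tg.

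**Figure D4:**
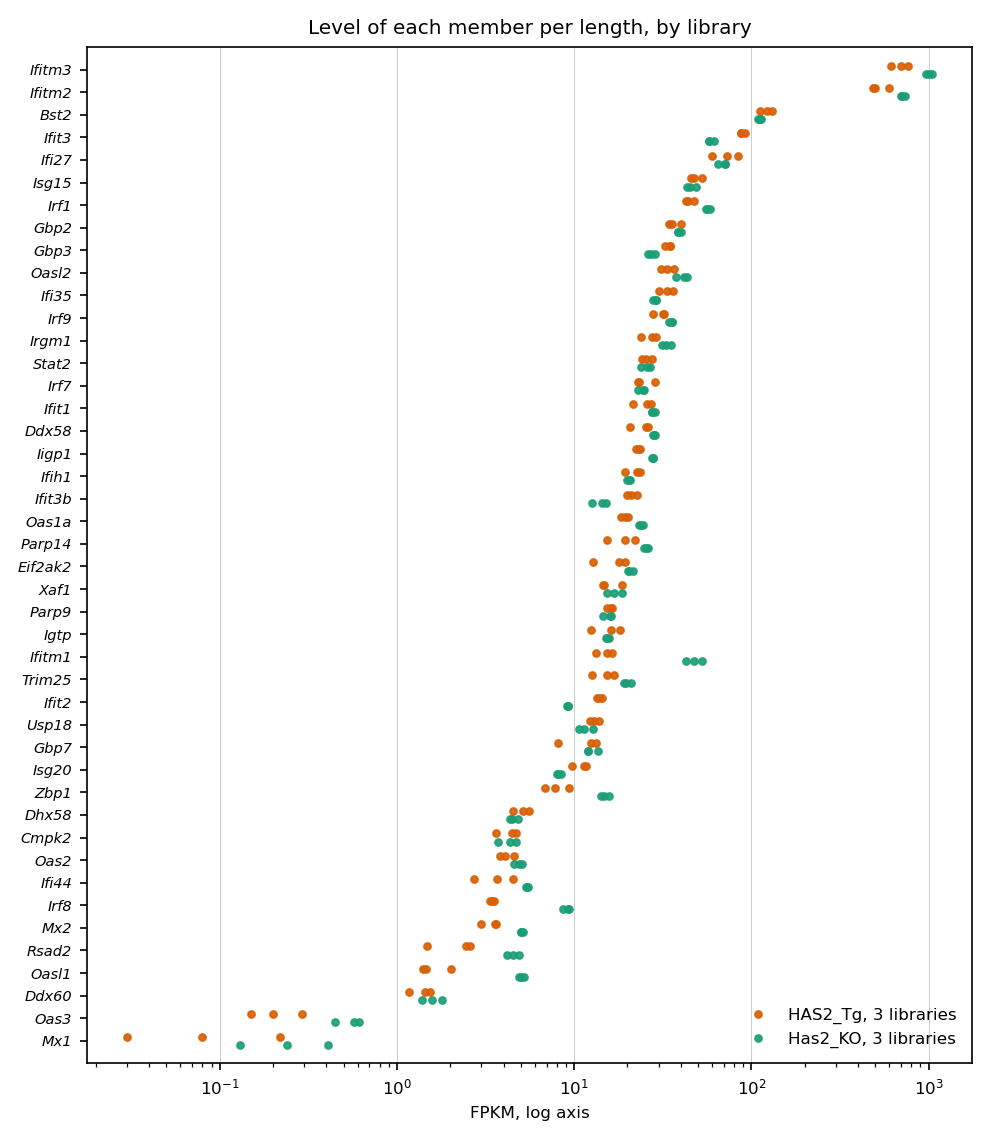
FPKM of the 44 members in each library on a log axis, ordered by the HAS2_Tg mean from top to bottom, with HAS2_Tg points drawn above Has2_KO points. Ifitm3 and Ifitm2 are the highest in both groups, and Ifitm1 shows the widest gap among members above 10 FPKM.

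Within groups the members varied no more than other genes in the median. Their median coefficient of variation was 9.50% in HAS2_Tg and 4.07% in Has2_KO, against 10.3% in HAS2_Tg and 6.07% in Has2_KO over all tested genes. HAS2_Tg replicate 4 was below replicates 5 and 6 in 21 of 43 members and above both in 11, whereas over all genes it was below both in 36.3% and above both in 39.3%. The genes that were lowest there include Eif2ak2 (60.7 CPM, against 81.9 and 90.3 CPM in replicates 5 and 6), Gbp7, Igtp and Rsad2.

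Upstream of these genes, the pathway that senses interferon and foreign nucleic acid was more often lower than higher in HAS2_Tg. Of 63 pathway genes outside the members, 43 were tested. Of these 7 were higher and 19 lower, that is 16.3% higher and 44.2% lower (all genes 20.2% higher and 20.5% lower). With total counts 2 were higher and 28 lower (all genes 11.3% higher and 37.1% lower). Of 15 interferon genes 5 had a listed count, none passed the low-count filter, and their summed level was at most 0.612 CPM in HAS2_Tg and 0.916 CPM in Has2_KO. Ifnb1 had 1 count in each HAS2_Tg library and 4, 2 and 7 counts in Has2_KO libraries.

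Of 8 tested receptor and kinase genes 4 were lower and none was higher (all genes 20.5% lower and 20.2% higher). Ifnar2 was 144, 144 and 128 CPM in HAS2_Tg, against 237, 247 and 239.5 CPM in Has2_KO (log2 fold change -0.80, SE 0.08, edgeR adjusted p = 6.73e-07). Ifnar1 was 86.2, 100.1 and 95.7 CPM in HAS2_Tg, against 128, 134 and 128 CPM in Has2_KO (log2 fold change -0.46, SE 0.08, edgeR adjusted p = 0.000209). Both chains of the type I receptor were therefore lower without overlap between groups. Jak2, a kinase of the type II receptor, was 87.6, 89.7 and 102 CPM in HAS2_Tg, against 164, 158 and 150.4 CPM in Has2_KO (log2 fold change -0.76, SE 0.08), and Jak1 had -0.21. The type II receptor chains Ifngr1 (0.06) and Ifngr2 (-0.09) did not pass, and Ifngr1 was negative with total counts (-0.11).

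Among 11 further STAT and IRF genes 4 were higher and 3 lower with TMM scaling (all genes 20.2% higher and 20.5% lower). None was higher with total counts (all genes 11.3% higher). Irf2bp2, a corepressor of Irf2, and Stat6, a factor of interleukin-4 signalling, had log2 fold changes of 0.32 and 0.25. Irf5, a factor prominent in macrophages, was 4.31, 4.45 and 4.81 CPM in HAS2_Tg, against 14.8, 14.1 and 14.0 CPM in Has2_KO (log2 fold change -1.66, SE 0.13), and Stat3 and Stat5a had -0.26 and -0.35.

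Of 10 tested sensors, adaptors and kinases outside the members 8 were lower and none was higher (all genes 20.5% lower and 20.2% higher). Ikbke, a kinase that activates Irf3 and Irf7, was 9.51, 9.85 and 8.74 CPM in HAS2_Tg, against 22.1, 24.7 and 24.3 CPM in Has2_KO (log2 fold change -1.34, SE 0.11, edgeR adjusted p = 1.05e-07). Tlr7, the endosomal sensor of single-stranded RNA, had 3, 1 and 0 counts in HAS2_Tg and 70, 75 and 68 counts in Has2_KO (log2 fold change -5.41, SE 0.40), and Traf3, an adaptor, had -0.47. Among 14 genes listed as brakes on interferon signalling 3 were higher and 4 lower, beside the same shares of all genes. Of those that were higher, Samhd1 encodes a nucleotide hydrolase, while Pias3 inhibits STAT factors. Samhd1 was 101, 97.6 and 104 CPM in HAS2_Tg, against 69.8, 76.5 and 68.5 CPM in Has2_KO (log2 fold change 0.50, edgeR adjusted p = 0.000101). Its groups did not overlap, and it was higher with total counts as well (0.32). Stellate cell markers (17979 to 20947 CPM in HAS2_Tg and 10558 to 11132 CPM in Has2_KO) moved with it, and their part was not tested. Pias3 had 0.38 and did not pass with total counts (0.21). The phosphatase gene Ptpn6, a gene of blood cells, had a log2 fold change of -4.22, the feedback inhibitor Socs3 -0.53 and Nlrc5, which also drives MHC class I transcription, -0.49. Macrophage markers (14.8 to 17.6 CPM in HAS2_Tg and 673 to 728 CPM in Has2_KO, summed) and endothelial markers (26.8 to 30.2 CPM in HAS2_Tg and 1147 to 1249.5 CPM in Has2_KO) moved with Ifnar1, Ifnar2, Jak2, Irf5, Ikbke, Tlr7 and Ptpn6, and their part in these differences was not tested.

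**Figure D5:**
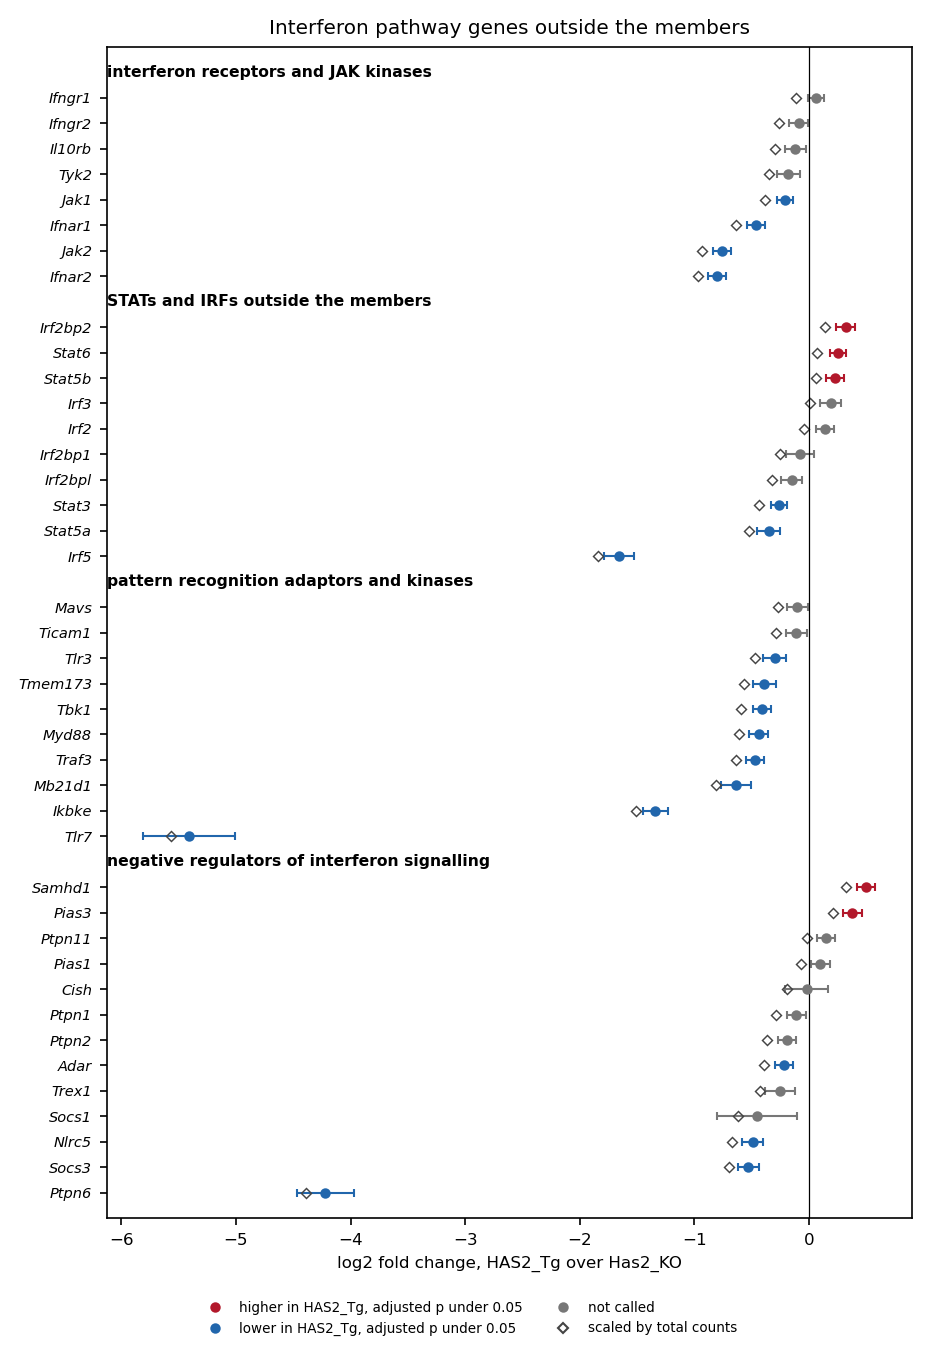
Log2 fold change of HAS2_Tg over Has2_KO (x axis) for tested pathway genes outside the members, with TMM-scaled estimates ± SE as filled points and estimates scaled by total counts as open diamonds. Ifnar1, Ifnar2 and Jak2 lie left of 0, and Tlr7 (-5.41) and Ptpn6 (-4.22) lie farthest left.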

How the data were processed

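RNA was sequenced from primary stellate cells in 6 libraries, 3 per group. The submitters' processing notes name RSEM, with no version, and mm10. A deposited file covers 1 library and gives the authors' expected counts (estimated reads per gene, which need not be whole) and the authors' FPKM (fragments scaled by gene length and depth), per the file headers. A gene missing from a library was set to 0, which filled 12658 cells. Of 17909 identifiers 17857 were named through RefSeq's GRCm38.p6 table, which is the same assembly as mm10.

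Rounded counts that passed filterByExpr were scaled with TMM factors. The two-sided quasi-likelihood test of edgeR 4.0.16 in R 4.3.3 was run on 13014 genes, and p-values were adjusted by Benjamini-Hochberg at 0.05. Fold changes are HAS2_Tg over Has2_KO, and CPM are TMM-normalised. Each library held 11961726 to 12423220 counts, and their number limits the precision of low genes; reads carry no molecular identifiers. In simulated data for this comparison (12970 genes run), 30% of 50 genes changed by 1.25-fold were recovered, 74% of 50 at 1.5-fold, 98% of 50 at 2-fold and 100% of 50 at 4-fold. The simulation changed 200 genes and gave every gene the same dispersion in both groups. In the real data 20.2% of tested genes were higher and 20.5% lower, and the groups differed in spread. These rates therefore do not give the power of the real comparison. HAS2_Tg libraries differed more among themselves (chi-square per degree of freedom 6.24 to 31.6) than Has2_KO libraries (2.32 to 3.17), and no pair was a duplicate.

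The members and lists were chosen with earlier results of these data known. Values per library are given for each called member with at least 5 CPM in its higher group (Oas3 was added after its values were seen) and each IRF and STAT member, and pathway genes are the leading 3 per list and direction by adjusted p, apart from some that are counted but not reported here by name. Alternatives were DESeq2 1.42.0 size factors, total counts, upper-quartile factors, other low-count filters, the DESeq2 Wald test, limma 3.58.1 on log2(FPKM + 1) or log2(FPKM + 0.1), stricter thresholds and leaving out each library. Shared 50-base words were counted between GENCODE transcripts. Python 3.11.15 was used for summaries and motif counts.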

Additional observations from a re-analysis of the deposited data

How the results depend on the processing

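No paired analysis was possible because the groups share no replicate numbers. Of 12 members higher and 10 lower in HAS2_Tg, total counts gave 5 and 19, limma on FPKM gave 5 higher with either pseudocount or no filter, and 16 lower (17 with no filter). An adjusted p of 0.01 left 7 higher and ended the lower calls of Mx2, Ifitm2 and Ifi44. A 1.5-fold test gave 2 higher and 3 lower. Leaving out a library gave 7 to 14 higher and 7 to 11 lower. The shares of all genes at 0.01 and without a library are not given here. These changes in number are therefore not read as a trait of the members. Of pathway genes, 2 were higher with total counts and with each limma fit, 30 lower with limma without a filter, and 0 higher and 5 lower with the 1.5-fold test. All genes gave 1477 higher and 4827 lower with total counts, 1399 and 4198 with limma, 1376 and 4138 with a pseudocount of 0.1, 1366 and 4596 without a filter, and 552 and 1045 with the 1.5-fold test.

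Of 728 member values under alternatives 36 changed sign, in 10 members, none of them called by edgeR with TMM scaling of all 6 libraries. Among these 10, Ddx58 and Eif2ak2 passed as lower with total counts, and Gbp7 and Igtp as higher without HAS2_Tg replicate 4. Ifit1 was -0.17 with total counts and -0.17 to -0.18 with limma, Gbp2 -0.09 with each, Gbp7 -0.16 with total counts and -0.17 to -0.19 with limma, Xaf1 -0.08 with each and Igtp -0.00 with limma. With a mean of 5 CPM required, Ifit1 was -0.01 and Gbp7 -0.00, and Dhx58 and Parp9 did not pass (adjusted p = 0.0533 and 0.0563, edgeR). Over left-out libraries the range crossed 0 for Ifit1 (-0.04 to 0.08), Gbp7 (-0.12 to 0.19), Xaf1 (-0.01 to 0.17), Oas2 (-0.11 to 0.01), Ddx58 (-0.12 to 0.03), Irf9 (-0.07 to 0.03), Ddx60 (-0.11 to 0.08) and Eif2ak2 (-0.26 to 0.00). The cause was not tested. Depth limits Oas3 and Mx1, the members with the fewest counts.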

Other observations

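Markers of further cell types were measured too. Of 7 tested hepatocyte markers 6 were lower in HAS2_Tg, with a summed level of 23.7 to 24.6 CPM in HAS2_Tg and 53.2 to 69.4 CPM in Has2_KO. Most of the HAS2_Tg sum was Trf, which did not pass (21.5 to 23.0 CPM in HAS2_Tg and 22.9 to 28.1 CPM in Has2_KO). Alb, the plasma albumin gene, had 7, 14 and 9 counts in HAS2_Tg and 271, 376 and 276 counts in Has2_KO. Of 3 tested neutrophil markers, Csf3r (-1.20) and Mmp8 (2 counts in all in HAS2_Tg, in replicate 5, and 42, 54 and 50 counts in Has2_KO) were lower and Cxcr2 did not pass. The neutrophil list summed to 30.1 to 34.8 CPM in HAS2_Tg and 37.2 to 39.8 CPM in Has2_KO, most of it Cxcr2 (28.9 to 33.4 CPM in HAS2_Tg and 29.4 to 33.1 CPM in Has2_KO). No T, NK, B or plasma cell marker passed the low-count filter, and these lists summed to at most 1.13 and 1.35 CPM in HAS2_Tg and at most 2.28 and 1.37 CPM in Has2_KO.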
